A study of Mus musculus with 26 samples.

Results

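The transcripts described here are 10 genes known as targets of p53, measured in mouse embryonic stem cells after knockdown of either gene of the m6A writer pair Mettl3 and Mettl14. The genes were Cdkn1a, Btg2, Ccng1, Plk2, Perp, Trp53inp1, Aen, Eda2r, Mdm2 and Ephx1, chosen by name from 22180 genes that had a probe set with a single gene symbol. The brightest such probe set, by the mean over 26 arrays, stood for each gene. The list was drawn up with earlier results of these data known, so its counts beside those of all genes are a description. All 10 lay above the filter on dim genes, which left 14787 genes in the tests. Values are log2 signals of Affymetrix Mouse Gene 2.0 ST arrays, on which 1 unit is a 2-fold difference. They are compared for 1 gene across arrays and never between genes.

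J1 embryonic stem cells, a mouse line, were kept in serum with leukaemia inhibitory factor on irradiated fibroblast feeders. A time course held 9 groups of 2 arrays, taken at 0 h, 4 h and 8 h from cells with a scramble control (called wild type in its treatment label), with Mettl14 knocked down or with Mettl3 knocked down. A further 4 groups of 2 arrays, all at 0 h, form the repeat set, in which each knockdown had a scramble control of its own. The protocols describe stable lentiviral short hairpin lines selected with puromycin and also repeated transfection with small interfering RNA. Which arrays came from which method is not given in the labels, nor is the agent of the 4 h and 8 h incubations. The replicates are called biological, but nothing says that they came from separate cultures, so each p-value reflects only how far these arrays spread, which may be technical. In the repeat set, the second replicate of each scramble control has a description of 4 h, against 0 h in its title, source and time field. It was kept at 0 h, and its Cdkn1a signal differed from that of the first replicate by 0.09 in the control for Mettl14 and by 0.04 in the control for Mettl3.

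p53 is a transcription factor that damaged DNA and other stresses stabilise. It binds a recognition element made of a pair of short motifs and switches on genes that stop the cell cycle, repair damage or start cell death. Mdm2, itself a target, marks p53 for destruction, so the pathway limits itself. In mouse embryonic stem cells p53 is known for lowering Nanog after damage and favouring differentiation. Mettl3 and Mettl14 form the enzyme that places m6A on messenger RNA, a mark tied to the lifetime of transcripts, which is the question the series asks. The arrays measured transcripts, and p53 protein was not measured. Trp53, the gene of p53, was not analysed here.

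Promoter windows show which of the genes carry the p53 motif beside their start. RefSeq windows of 300 bases (250 before and 50 after the annotated start, build GRCm38.p6) matched 8 of the 10 genes with 10 windows, not those of Perp and Trp53inp1. The 10-base p53 recognition motif, searched by its consensus, which reads the same on both strands, lay in 5 of the 10 windows, those of Cdkn1a, Mdm2, Ccng1 and Aen. Over all genes, 8.36% of 32851 windows of that length held it. In the stretches printed here, 5′ to 3′ along the gene, capitals mark exact motifs and, for Cdkn1a and Ccng1, the adjoining motif that departs from the consensus at 1 position.
Cdkn1a: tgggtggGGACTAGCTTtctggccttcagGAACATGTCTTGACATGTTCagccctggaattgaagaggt
Ccng1: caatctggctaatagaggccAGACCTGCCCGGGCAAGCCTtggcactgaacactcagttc
Mdm2: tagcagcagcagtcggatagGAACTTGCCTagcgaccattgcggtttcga
Aen: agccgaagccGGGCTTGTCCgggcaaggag
The Cdkn1a stretch lies at chr17:29090899-29090967 on the plus strand, upstream of the gene, and its pair of adjoining motifs begins 51 bases before the start. Ccng1 has its pair within the stretch at chr11:40755442-40755501 on the minus strand, and the pair begins 195 bases before the start. The single motif of Mdm2 lies in chr10:117710915-117710964 on the minus strand, 186 bases before one annotated start of the gene. Aen has its motif in chr7:78895927-78895956 on the plus strand, 121 bases before the start. No match was found in the windows of Plk2, Ephx1, Eda2r and Btg2, which says only that these letters are not in those windows. A match is a description of sequence and not evidence of binding.

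The knockdowns lowered their targets. Mettl14 fell to 30.9% of scramble at 0 h of the time course and to 39% in the repeat set. Mettl3 shares its listed probe set with Tox4, and that signal fell to 26.9% and 23.6%. In the same order, Mettl14 knockdown also lowered this shared signal, to 70.5% and 73.2% of scramble. With Mettl3 knockdown Mettl14 was at 93.5% and 86.1% and did not pass. Replicates correlated across probe sets at 0.9869 to 0.9926, values ran from 0.754 to 14.32, and having 2 arrays in each group limits the precision. At 0 h the 6 time course arrays stood apart in the lower quartile of their probe sets. It was 5.25 to 5.279, against 5.013 to 5.115 in the other 20 arrays. Their median of 25 long-lived transcripts overlapped that of the others, 12.088 to 12.393 against 12.203 to 12.577. Among the 6 this median was lower in scramble (12.088 and 12.176) than in Mettl14 knockdown (12.393 and 12.305) or Mettl3 knockdown (12.252 and 12.349). Comparisons among these 6 arrays, and comparisons at 4 h and 8 h, do not set them against the other 20. Those among the 6 do hold the difference between scramble and knockdown in long-lived transcripts.

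At 0 h of the time course, 9 of the 10 p53 targets rose in each knockdown, and none fell. Plk2, Btg2, Perp and Cdkn1a moved most with Mettl14 knockdown, up to 3.75-fold for Plk2. Ephx1 did not pass the test in either knockdown. A gene passed where its adjusted p in limma, over all genes tested, was under 0.05. By that rule, 19.4% of all genes were higher and 20.1% lower in Mettl14 knockdown, and 19.3% higher and 18.6% lower in Mettl3 knockdown. The median change of the 10 genes was 0.86 and 0.65 in the Mettl14 and Mettl3 knockdowns, beside -0.00 and 0.00 for all genes. The counts of 9 and 9 stayed the same without any single array of the 18.

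In the repeat set the same knockdowns moved the 10 genes in both directions. With Mettl14 knockdown Cdkn1a, Btg2, Plk2 and Perp rose by 1.25-fold to 1.32-fold, while Ephx1 and Eda2r fell. Against them, 19.4% of all genes were higher and 16.9% lower. With Mettl3 knockdown Perp and Btg2 rose slightly, by 1.12-fold each, and Ephx1, Eda2r, Trp53inp1 and Mdm2 fell, against 17.9% of all genes higher and 17.4% lower. The calls of Perp, Btg2 and Mdm2 in that comparison were lost without scramble replicate 1, scramble replicate 2 or Mettl3 knockdown replicate 1, which left 3 of the 6 calls each time. In the control for Mettl14 the means of Perp and Btg2 were 9.99 and 9.76, close to 9.95 and 9.76 in Mettl3 knockdown. The median change of the 10 genes was 0.03 and -0.04.

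**Figure D1:**
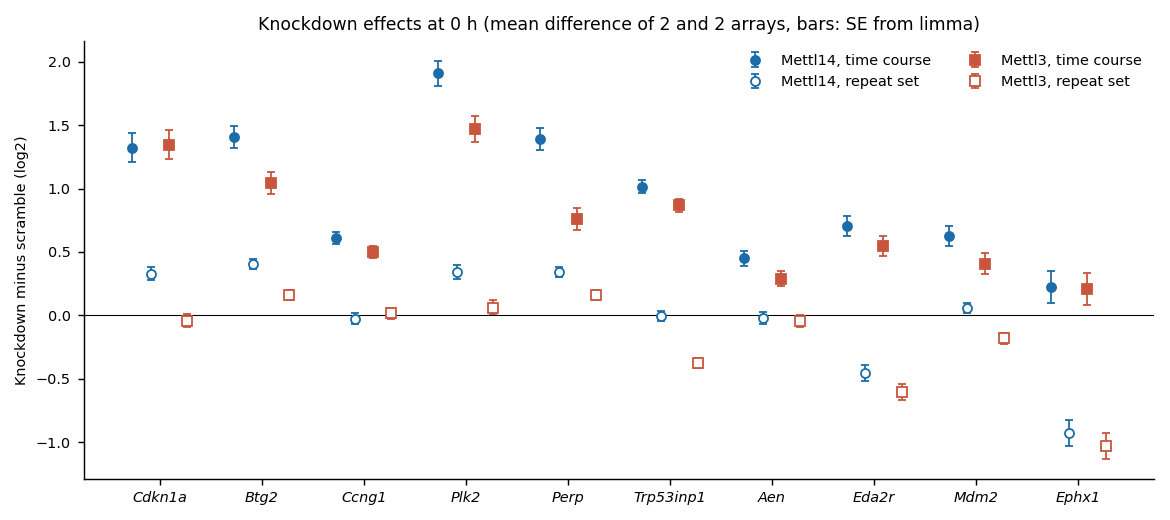
Knockdown minus scramble at 0 h on the log2 scale for the 10 genes (x axis), for Mettl14 (circles) and Mettl3 (squares) in the time course (filled) and the repeat set (open). Bars are standard errors from limma with 2 arrays in each group; every time course value lies above the repeat set value of the same knockdown, and Ephx1 and Eda2r lie below 0 in the repeat set.

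Markers of other cell types moved with the knockdowns as well. Of 20 listed fibroblast markers, which the feeder cells would bring, 19 were measured and 16 tested. In the time course at 0 h 8 rose and 1 fell with Mettl14 knockdown, beside 19.4% of all genes higher and 20.1% lower. With Mettl3 knockdown 7 rose and 2 fell there, beside 19.3% and 18.6%. In the repeat set 6 rose and none fell with Mettl14 knockdown (19.4% and 16.9% of all genes), and 6 rose and 1 fell with Mettl3 knockdown (17.9% and 17.4%). The mean log2 signal of the 19 ran from 7.05 to 7.07 in time course scramble, 7.45 to 7.52 in Mettl14 knockdown and 7.40 to 7.45 in Mettl3 knockdown. In the repeat set it ran from 7.43 to 7.47 and 7.30 to 7.32 in the controls for Mettl14 and Mettl3, and from 7.60 to 7.63 and 7.54 to 7.56 in the knockdowns. Summed on the linear scale, the signal was 7997 to 8024 in time course scramble, 10251 to 10587 and 10060 to 10121 in its knockdowns, 10917 to 11015 and 10136 to 10215 in the repeat controls, and 11970 to 12042 and 10847 to 10916 in the repeat knockdowns. Of the 19, the 3 below the filter on dim genes were Dcn, Lum and Postn, with means of 5.32, 4.29 and 4.82 over the 26 arrays. The 16 tested had means from 6.16 (S100a4) to 12.29 (Fn1), among them Tagln at 10.18, Acta2 at 10.16, Mmp2 at 10.08 and Col1a1 at 7.91. Once the long-lived transcripts were set equal in every array, 6 rose and 3 fell (Mettl14) and 5 rose and 2 fell (Mettl3) in the time course. Of all genes, 8.47% were then higher and 43.8% lower (Mettl14), and 9.52% and 35.1% (Mettl3). With that scaling 7 and 9 rose and none fell in the repeat set. The shares of all genes there were 31.2% higher and 8.04% lower (Mettl14), and 26.6% and 9.93% (Mettl3). During incubation the mean log2 signal of the fibroblast markers ran from 7.27 to 7.47 in scramble, 7.68 to 7.78 with Mettl14 knockdown and 7.64 to 7.74 with Mettl3 knockdown. Of 9 stem cell markers tested, none rose and 7 to 9 fell in each of the 4 comparisons at 0 h. Of all genes, 17.9% to 19.4% were higher and 16.9% to 20.1% lower in these comparisons. The mean of the 10 listed was 10.89 to 10.90 in time course scramble, 10.21 to 10.25 in its knockdowns, 10.79 to 10.84 in the repeat controls and 10.32 to 10.35 in the repeat knockdowns. Over the 26 arrays the means of the 9 tested ran from 8.00 (Esrrb) to 12.63 (Tdgf1), with Pou5f1 at 8.42 and Nanog at 12.38, and Dppa5a, at 5.65, was below the filter. Nanog fell by 0.72 ± 0.05 and 0.82 ± 0.05 in the time course and by 0.22 ± 0.05 and 0.44 ± 0.05 in the repeat set. The part of these markers in the changes of the p53 targets was not tested. In bulk RNA, fewer cells of a type and less RNA per cell cannot be told apart.

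The genes that slow or pause the cell cycle come first. Cdkn1a encodes p21, an inhibitor of cyclin-dependent kinases. In the time course at 0 h it read 10.27 and 10.23 in scramble, 11.56 and 11.59 in Mettl14 knockdown, and 11.52 and 11.67 in Mettl3 knockdown. The repeat set gave 11.19 and 11.28 in the control for Mettl14 and 11.60 and 11.52 in that knockdown. The control for Mettl3 read 11.05 and 11.01, and its knockdown 10.97 and 11.01. The Mettl14 knockdown arrays of both sets thus lay within 11.52 to 11.60, and the scramble mean was 0.88 higher over the 4 repeat controls than in the time course. Here and for the other genes, levels are set side by side between the sets as deposited. Joint processing of the sets is not given, and these gaps in level were not computed under another scaling. The Mettl3 knockdown arrays were higher in the time course. Cdkn1a rose by 1.32 ± 0.11 (SE, n = 2 in each group) with Mettl14 knockdown and by 1.35 ± 0.11 with Mettl3 knockdown in the time course. The repeat set gave 0.33 ± 0.05 (adjusted p = 0.00328) and -0.04 ± 0.05 (adjusted p = 0.563), with overlapping arrays in the latter.

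Btg2 encodes an antiproliferative protein that recruits the deadenylase of messenger RNA tails. It read 8.89 and 8.71 in time course scramble, 10.19 and 10.21 in Mettl14 knockdown and 9.84 and 9.85 in Mettl3 knockdown. Repeat arrays read 9.76 and 9.75 in the control for Mettl14, 10.15 and 10.17 in that knockdown, 9.61 and 9.59 in the control for Mettl3, and 9.76 and 9.76 in its knockdown. As for Cdkn1a with Mettl14 knockdown, the knockdown levels of both sets lay close together, differing by -0.04 and -0.08 between the sets, while the repeat scramble mean was 0.88 above that of the time course. The rises were 1.40 ± 0.09 and 1.04 ± 0.09 in the time course, and 0.40 ± 0.04 and 0.16 ± 0.04 in the repeat set.

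Ccng1 encodes cyclin G1, a partner of the phosphatase that acts on Mdm2, and varied least among the 10, by 0.81 over the 13 group means. It read 12.41 and 12.38 in time course scramble, 13.04 and 12.97 in Mettl14 knockdown, and 12.86 and 12.93 in Mettl3 knockdown. The 8 arrays of the repeat set read from 12.51 to 12.67. Ccng1 rose by 0.61 ± 0.05 and 0.50 ± 0.05 in the time course. Its repeat changes were -0.03 ± 0.04 (adjusted p = 0.652) and 0.02 ± 0.04 (adjusted p = 0.802).

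Plk2, a polo-like kinase induced by stress, gave the largest rises of the 10 at 0 h of the time course. It read 8.73 and 8.68 in time course scramble, 10.61 and 10.62 in Mettl14 knockdown, and 10.01 and 10.35 in Mettl3 knockdown. The repeat control for Mettl14 read 9.35 and 9.26 and the knockdown 9.63 and 9.67. There the control for Mettl3 read 9.21 and 9.17 and its knockdown 9.19 and 9.32, with overlapping arrays. Scramble was thus lower, and both knockdowns higher, in the time course than in the repeat set. The time course rises were 1.91 ± 0.10 (adjusted p = 3.17e-08) and 1.47 ± 0.10 (adjusted p = 3.19e-07). The repeat set gave 0.34 ± 0.06 (adjusted p = 0.00428) and 0.06 ± 0.06 (adjusted p = 0.468).

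Among the genes of cell death, Perp encodes a membrane protein of cell junctions that takes part in p53-dependent death. Its scramble arrays read 9.99 and 9.92 in the time course, 9.98 and 9.99 in the control for Mettl14 and, lower, 9.79 and 9.79 in the control for Mettl3. Perp read 11.39 and 11.30 in Mettl14 knockdown of the time course but 10.31 and 10.35 in that of the repeat set. With Mettl3 knockdown it read 10.59 and 10.85 against 9.98 and 9.93. No knockdown array overlapped the control it was compared with. The Mettl3 knockdown arrays of the repeat set lay above their own control but not above the control for Mettl14. The rises were 1.39 ± 0.09 and 0.76 ± 0.09 in the time course, and 0.34 ± 0.04 and 0.16 ± 0.04 in the repeat set.

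Trp53inp1 encodes a nuclear stress protein that promotes p53 activity. It read 10.65 and 10.66 in time course scramble, 11.63 and 11.72 in Mettl14 knockdown, and 11.54 and 11.51 in Mettl3 knockdown. Repeat signals were 11.19 and 11.17 in the control for Mettl14 and 11.16 and 11.19 in that knockdown, a change of -0.00 ± 0.04 (adjusted p = 0.958). The control for Mettl3 read 11.05 and 11.04 and its knockdown 10.68 and 10.66. Trp53inp1 therefore rose by 0.87 ± 0.05 with Mettl3 knockdown in the time course (adjusted p = 8.24e-08) and fell by 0.37 ± 0.04 with it in the repeat set (adjusted p = 0.000657).

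Aen, a nuclease that takes part in apoptosis, read 9.18 and 9.22 in time course scramble, 9.62 and 9.67 in Mettl14 knockdown, and 9.57 and 9.40 in Mettl3 knockdown. All 8 arrays of the repeat set lay lower, from 8.73 to 8.82. The time course rises were the smallest of those that passed, 0.45 ± 0.06 (adjusted p = 8.37e-05) and 0.29 ± 0.06 (adjusted p = 0.00233). Its repeat changes were -0.02 ± 0.05 (adjusted p = 0.767) and -0.05 ± 0.05 (adjusted p = 0.479).

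Eda2r, a receptor of the tumour necrosis factor receptor family that binds ectodysplasin A2, had opposite calls in the time course and the repeat set. Its scramble arrays overlapped, 9.59 and 9.58 in the time course, 9.59 and 9.63 in the control for Mettl14, and 9.53 and 9.67 in the control for Mettl3. In the time course it rose to 10.37 and 10.20 with Mettl14 knockdown and to 10.11 and 10.15 with Mettl3 knockdown. With the repeat arrays it fell to 9.13 and 9.18 with Mettl14 knockdown and to 8.95 and 9.04 with Mettl3 knockdown. The changes were 0.70 ± 0.08 (adjusted p = 2.23e-05) and 0.54 ± 0.08 (adjusted p = 0.000184) in the time course. They were -0.46 ± 0.06 (adjusted p = 0.00172) and -0.61 ± 0.06 (adjusted p = 0.000583) in the repeat set.

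Mdm2 encodes the ubiquitin ligase that limits p53. It read 10.80 and 10.91 in time course scramble, 11.52 and 11.45 in Mettl14 knockdown, and 11.30 and 11.23 in Mettl3 knockdown. All 8 arrays of the repeat set lay below these, with 10.47 and 10.47 in the control for Mettl14, 10.56 and 10.50 in that knockdown, 10.40 and 10.40 in the control for Mettl3, and 10.20 and 10.23 in its knockdown. Mdm2 rose by 0.63 ± 0.08 and 0.41 ± 0.08 in the time course. Across the repeat arrays it changed by 0.06 ± 0.04 with Mettl14 knockdown (adjusted p = 0.33) and fell by 0.18 ± 0.04 with Mettl3 knockdown (adjusted p = 0.015).

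Ephx1, microsomal epoxide hydrolase, detoxifies reactive epoxides and differed most between the sets in scramble. It read 7.43 and 7.54 in time course scramble, against 9.20 and 9.19 in the control for Mettl14 and 9.03 and 8.69 in the control for Mettl3, a mean 1.54 higher. The time course knockdowns read 7.63 and 7.78 (Mettl14) and 7.67 and 7.72 (Mettl3). Those of the repeat set read 8.28 and 8.25 (Mettl14) and 7.82 and 7.84 (Mettl3), so that the fall there ended nearer to the time course levels. Its changes were 0.22 ± 0.13 (adjusted p = 0.192) and 0.21 ± 0.13 (adjusted p = 0.217) in the time course. For the repeat arrays they were -0.93 ± 0.10 (adjusted p = 0.000612) and -1.03 ± 0.10 (adjusted p = 0.000455).

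**Figure D2:**
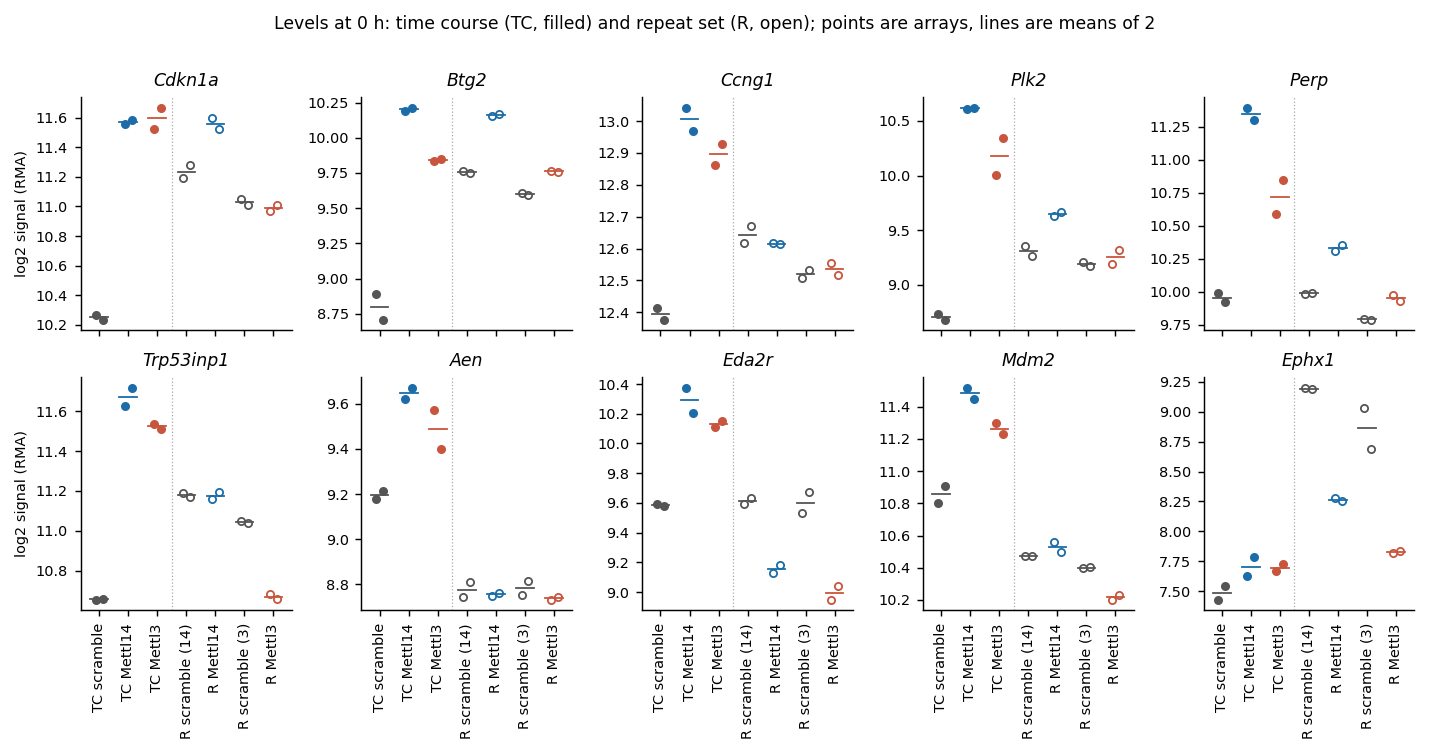
Log2 signal of each array at 0 h (y axis, its range differing between panels) for the 10 genes in the time course (TC, filled points) and the repeat set (R, open points), with lines at the means of 2 arrays. "R scramble (14)" and "R scramble (3)" are the repeat controls for Mettl14 and Mettl3. In the deposited values, Btg2 differs between the sets in scramble, as does Cdkn1a beside Mettl14 knockdown, and Perp and Eda2r mainly in the knockdowns.

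Scramble levels differed between the sets for most of the genes, which is given as a description, since set and any batch cannot be told apart. The repeat scramble mean was higher than that of the time course for 7 genes, 6 of them without overlapping arrays, by 0.19 (Ccng1) to 1.54 (Ephx1). It was lower for 3 genes, of which Mdm2 and Aen did not overlap and each differed by -0.42. The same counts were not made over all genes, so these do not set the 10 apart from other genes. Within the repeat set, the control for Mettl3 lay below the control for Mettl14 for 9 of the genes, by at most 0.33 (Ephx1), and none of the 10 passed limma's test. Of all genes, 0.257% were higher and 0.413% lower there, and 2369 had an unadjusted p under 0.05, among them 6 of the 10. With limma's trend and robust options 6 of the 10 passed.

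The knockdown effects of the sets differed for every one of the 10 genes. In a fit over all 26 arrays, the time course effect exceeded the repeat effect by 0.47 to 1.57 for Mettl14 and by 0.33 to 1.41 for Mettl3, and all 10 passed for each knockdown. Across all genes 7.86% were higher and 8.64% lower for Mettl14, and 6.15% higher and 3.66% lower for Mettl3. Plk2 differed most for Mettl14, by 1.57 ± 0.13 (adjusted p = 3.82e-07), and Plk2 (1.41 ± 0.13) and Cdkn1a (1.39 ± 0.14) for Mettl3. Aen differed least, by 0.47 ± 0.08 and 0.33 ± 0.08. The median over the 10 was 1.01 and 1.02, beside -0.01 and 0.00 for all genes. Leaving out any 1 of the 26 arrays kept all 10 calls for each knockdown. This difference sets the arrays that stand apart against the repeat set, and no value without them can be had for it. For both knockdowns it uses the same scramble arrays of the time course, so their counts are not independent.

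Setting the median of 25 long-lived transcripts equal in every array changed these splits. It moved the median of all genes by -0.22 (Mettl14) and -0.17 (Mettl3) at 0 h of the time course, by 0.11 and 0.08 in the repeat set, and by -0.33 and -0.25 in the difference between sets. Of all genes, 8.47% were then higher and 43.8% lower with Mettl14 knockdown in the time course, and 9.52% higher and 35.1% lower with Mettl3 knockdown. The repeat set had 31.2% higher and 8.04% lower (Mettl14), and 26.6% higher and 9.93% lower (Mettl3). Between the sets, 2.61% were higher and 51.6% lower for Mettl14, and 1.95% higher and 32.2% lower for Mettl3. Against that shift, the p53 targets rose in 9 and 7 cases of 10 in the time course, with Mdm2 and Aen not passing for Mettl3. Among the repeat arrays 5 rose and 2 fell with Mettl14 knockdown and 2 rose and 3 fell with Mettl3 knockdown. The set difference stayed above 0 and passed for 8 (not Mdm2 and Aen) and 9 (not Aen) of the 10.

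The genes were also higher in the knockdowns during incubation. At 4 h and at 8 h all 10 p53 targets were higher than in scramble in both knockdowns, Ephx1 included. The sizes of these effects hold no array of the 0 h time course, but their p-values rest on a spread shared by all 18 arrays. At 4 h 20% of all genes were higher and 19.5% lower with Mettl14 knockdown, and 19.4% higher and 18.4% lower with Mettl3 knockdown. At 8 h the shares were 23.8% and 19.8% for Mettl14, and 23.8% and 19% for Mettl3. Plk2 had the largest effect at both times, 1.58 ± 0.10 and 1.97 ± 0.10 with Mettl14 knockdown and 1.44 ± 0.10 and 1.92 ± 0.10 with Mettl3 knockdown. Ephx1 had the smallest at 8 h, 0.54 ± 0.13 and 0.35 ± 0.13, and its adjusted p with Mettl3 knockdown was 0.0424. That call was lost without any of 11 single arrays, and without scramble replicate 1 at 8 h the effect was 0.11 (adjusted p = 0.438). With an array left out, 10 genes passed for Mettl14 at 8 h, and 9 or 10 in the other 3 comparisons. With the long-lived transcripts set equal, 9 (Mettl14) and 9 (Mettl3) were higher at 4 h and 10 and 9 at 8 h. Then 11.8% of all genes were higher and 30.4% lower at 4 h for Mettl14 and 10.9% and 31.9% for Mettl3. At 8 h that scaling gave 22.6% higher and 15.4% lower for Mettl14 and 20.7% and 15.5% for Mettl3.

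**Figure D3:**
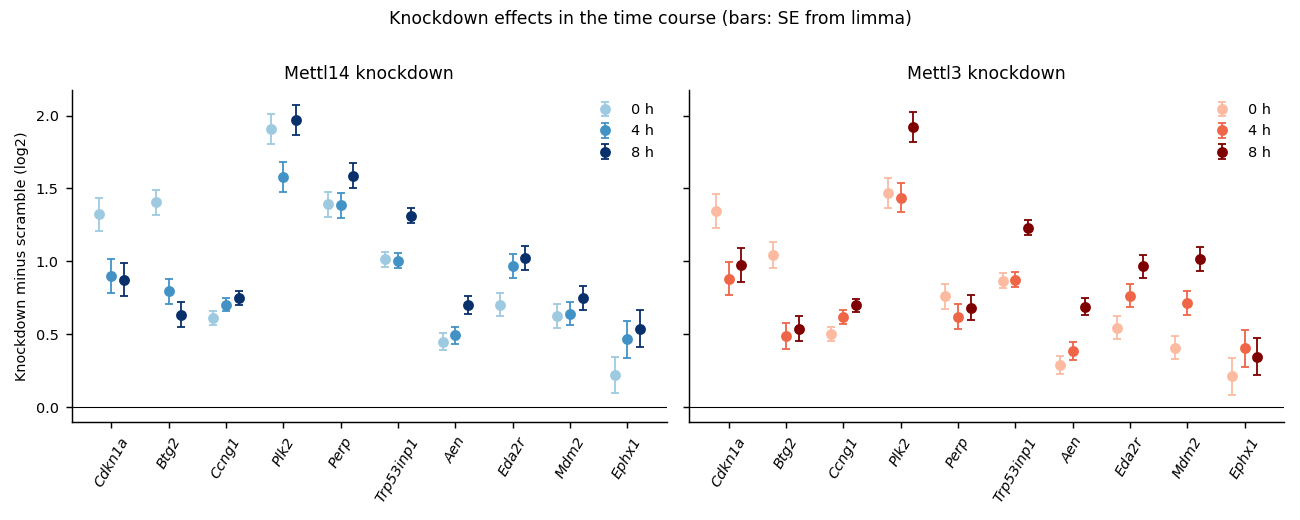
Knockdown minus scramble on the log2 scale (y axis) at 0 h, 4 h and 8 h of the time course for the 10 genes, with Mettl14 on the left and Mettl3 on the right and darker points for later times. Bars are standard errors from limma; the values of Cdkn1a and Btg2 lie lower at 4 h and 8 h than at 0 h, and those of Trp53inp1, Aen and Eda2r lie higher at 8 h than at 0 h.

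Part of the list was lower at 4 h and 8 h than at 0 h in every treatment. Cdkn1a, Plk2, Mdm2, Trp53inp1 and Eda2r fell by 8 h in scramble and in both knockdowns, whereas Perp, Ccng1, Aen and Ephx1 moved by 0.33 or less. In scramble 1 gene rose (Perp) and 5 fell at 4 h, against 32.7% of all genes higher and 13.5% lower. At 8 h 7 fell and none rose, against 39.2% higher and 21.6% lower, and the list's median was -0.54 beside 0.15 for all genes. With Mettl14 knockdown 1 rose and 5 fell at 4 h (33% and 13.1% of all genes), and 1 rose and 6 fell at 8 h (36.8% and 19.4%). With Mettl3 knockdown 6 fell at 4 h (31.5% of all genes higher and 13.1% lower), and 1 rose and 6 fell at 8 h (36.9% and 19.2%). These changes set the arrays that stand apart against the others, so time and that difference cannot be told apart, and they depended on the scaling. With the long-lived transcripts set equal, which moved the median of all genes by -0.15 to -0.41, 6 of the 10 fell at 4 h in each treatment, and 10, 6 and 7 fell at 8 h in scramble, Mettl14 and Mettl3 knockdown, with none higher. Of all genes, 3.16% were then higher and 24.4% lower at 4 h in scramble, 9.85% and 18.2% with Mettl14 knockdown, and 5.35% and 23.6% with Mettl3 knockdown. At 8 h the shares were 2.71% and 50.6%, 15.5% and 27%, and 10.6% and 33.9%. Quantile normalization within the set gave, at 4 h, 3605 genes higher and 2340 lower in scramble, 3683 and 2398 with Mettl14 knockdown, and 3613 and 2356 with Mettl3 knockdown.

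Cdkn1a lost the most signal of the 10. In scramble it read 8.46 and 8.22 at 4 h and 8.00 and 7.67 at 8 h, from 10.27 and 10.23 at 0 h. With Mettl14 knockdown it read 9.21 and 9.28 at 4 h and 8.73 and 8.69 at 8 h, and with Mettl3 knockdown 9.33 and 9.11, then 8.91 and 8.71. By 8 h 18.7% of the 0 h signal was left in scramble, 13.8% in Mettl14 knockdown and 14.5% in Mettl3 knockdown. Most of the loss came before 4 h, when 26.6%, 19.9% and 19.3% were left. The knockdowns' 8 h changes differed from that of scramble by -0.45 ± 0.16 (adjusted p = 0.153) and -0.37 ± 0.16 (adjusted p = 0.237), and neither passed.

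Plk2 also fell mainly before 4 h. It read 7.27 and 7.29 at 4 h and 6.88 and 6.74 at 8 h in scramble. In Mettl14 knockdown it read 8.87 and 8.86, then 8.66 and 8.89, and in Mettl3 knockdown 8.77 and 8.67, then 8.77 and 8.68. From 4 h to 8 h it fell by 0.48 ± 0.10 in scramble (adjusted p = 0.00682) and changed by -0.09 ± 0.10 (adjusted p = 0.686) and 0.01 ± 0.10 (adjusted p = 0.981) in the knockdowns, a difference that was not itself tested over that interval. By 8 h 26.8% of the 0 h signal was left in scramble, 27.9% in Mettl14 knockdown and 36.6% in Mettl3 knockdown.

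Mdm2 read 9.93 and 9.87 at 4 h and 9.45 and 9.28 at 8 h in scramble. In Mettl14 knockdown it read 10.56 and 10.52, then 10.07 and 10.16, and in Mettl3 knockdown 10.66 and 10.58, then 10.50 and 10.27. At 8 h 35.6% of the 0 h signal was left in scramble, 38.8% in Mettl14 knockdown and 54.3% in Mettl3 knockdown. Its 8 h fall was smaller in Mettl3 knockdown than in scramble by 0.61 ± 0.11 (adjusted p = 0.0132). Without scramble replicate 2 at 0 h, scramble replicate 2 at 8 h or Mettl3 knockdown replicate 1 at 8 h, that difference was 0.49 to 0.56, with adjusted p of 0.0504 to 0.056.

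Trp53inp1 fell between 4 h and 8 h as well as before. In scramble 78% of its signal was left at 4 h and 49% at 8 h, against 60.3% and 63.1% at 8 h in the knockdowns. It read 9.61 and 9.65 in scramble at 8 h, 10.95 and 10.93 in Mettl14 knockdown and 10.80 and 10.92 in Mettl3 knockdown. The 8 h fall was smaller than in scramble by 0.30 ± 0.07 (adjusted p = 0.0355) with Mettl14 knockdown and by 0.36 ± 0.07 (adjusted p = 0.0185) with Mettl3 knockdown. Eda2r kept 57.6% of its signal in scramble at 8 h, 71.8% in Mettl14 knockdown and 77% in Mettl3 knockdown, with differences of 0.32 ± 0.11 and 0.42 ± 0.11 that did not pass (adjusted p = 0.144 and 0.0662).

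Btg2 fell in the knockdowns, by 0.68 ± 0.09 and 0.41 ± 0.09 at 8 h, and changed by 0.09 ± 0.09 in scramble (adjusted p = 0.369). In scramble it read 9.05 and 8.98 at 4 h and 8.82 and 8.96 at 8 h, and 107% of the 0 h signal was measured at 8 h. In Mettl14 knockdown it read 9.75 and 9.87, then 9.55 and 9.50, and in Mettl3 knockdown 9.51 and 9.50, then 9.56 and 9.30. At 8 h 62.6% and 75.1% of the 0 h signal were left. The 8 h change differed from that of scramble by -0.77 ± 0.12 with Mettl14 knockdown (adjusted p = 0.00458) and by -0.51 ± 0.12 with Mettl3 knockdown (adjusted p = 0.0438). Because Btg2 was 1.40 and 1.04 higher at 0 h, it remained 0.64 ± 0.09 and 0.54 ± 0.09 above scramble at 8 h.

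Perp rose by 0.36 ± 0.09 at 4 h in scramble, and by 0.35 ± 0.09 at 4 h and 0.33 ± 0.09 at 8 h in Mettl14 knockdown, while its other 3 changes from 0 h, of 0.05 to 0.22, did not pass. It read 10.31 and 10.32 at 4 h and 10.05 and 10.12 at 8 h in scramble, and 11.65 and 11.75, then 11.57 and 11.77, in Mettl14 knockdown. In Mettl3 knockdown it read 10.95 and 10.92, then 10.77 and 10.75. Ccng1, Aen and Ephx1 had 91.9%, 85.4% and 82.5% of their signal at 8 h in scramble. Aen fell by 0.23 ± 0.06 in scramble and rose by 0.17 ± 0.06 in Mettl3 knockdown, a difference of 0.40 ± 0.09 (adjusted p = 0.0248). The Ephx1 arrays of scramble at 8 h, 6.97 and 7.44, were the most unlike pair of the list.

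**Figure D4:**
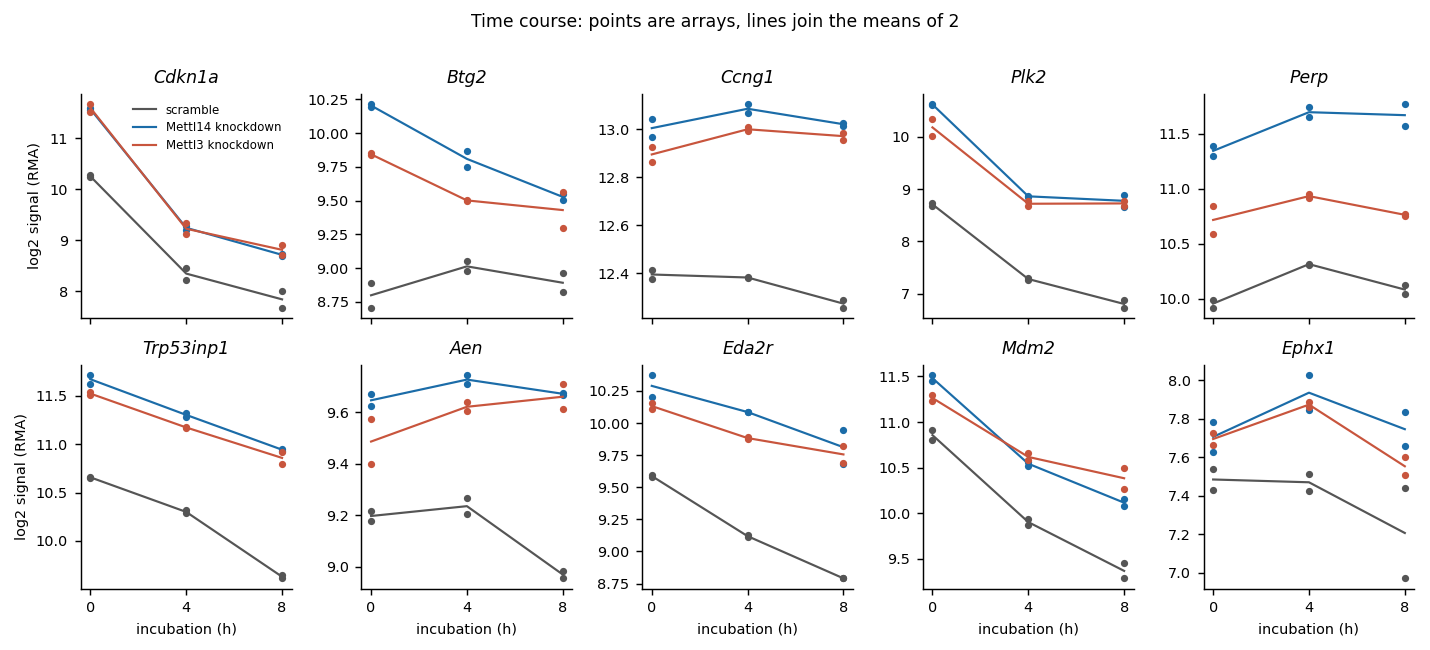
Log2 signal (y axis, its range differing between panels) at 0 h, 4 h and 8 h for scramble (grey), Mettl14 knockdown (blue) and Mettl3 knockdown (red); points are arrays and lines join the means of 2. Cdkn1a, Plk2 and Mdm2 fell in all 3 treatments, Perp, Ccng1 and Aen stayed within 0.36 of their 0 h means, and the Btg2 lines fall in the knockdowns and run level in scramble.

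The differences between 8 h changes depended on the arrays and on the scaling. With Mettl14 knockdown 1 gene was higher and 1 lower (3.58% and 1.41% of all genes), and with Mettl3 knockdown 3 were higher and 1 lower (2.46% and 1.01%). Without scramble replicate 2 at 0 h none of the 4 calls for Mettl3 passed in limma, without scramble replicate 2 at 8 h 1 did, without Mettl3 knockdown replicate 2 at 8 h 1 did, and without scramble replicate 1 at 0 h 2 did. For Mettl14, 12 of the 18 arrays, left out singly, took the count from 2 to 1, and Trp53inp1 did not pass without any of 13 arrays. With the long-lived transcripts set equal, 6 genes were higher and 1 lower for Mettl14 (23.3% and 0.311% of all genes), and 6 higher and none lower for Mettl3 (9.43% and 0.311%). Quantile normalization within the set gave 362 genes higher and 271 lower for Mettl14, and 272 and 187 for Mettl3.

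Between 4 h and 8 h, a comparison chosen after seeing the data, 6 of the 10 fell in scramble, 3 in Mettl14 knockdown and 2 in Mettl3 knockdown. The shares over all genes were 12.8% lower and 2.07% higher in scramble, 6.8% and 1.19% with Mettl14 knockdown, and 6.44% and 1.4% with Mettl3 knockdown. Trp53inp1 fell in all 3, by 0.67 ± 0.05, 0.36 ± 0.05 and 0.31 ± 0.05. Cdkn1a also fell in all 3, by 0.51, 0.53 and 0.41, each ± 0.11. With the long-lived transcripts set equal, 9, 3 and 2 fell, beside 32.1%, 6.21% and 6.43% of all genes lower and 0.122%, 0.237% and 0.176% higher. Quantile normalization gave 782 genes higher and 1492 lower in scramble, 379 and 935 with Mettl14 knockdown and 390 and 943 with Mettl3 knockdown. For Mettl3, 520 were higher and 1207 lower with trend and robust, and 520 and 1288 in the fit over 26 arrays. Without scramble replicate 2 at 8 h the count for scramble was 3, and without Mettl14 knockdown replicate 1 at 4 h or at 8 h that for Mettl14 was 1. For Mettl3 the count was 1 without any of 13 single arrays.

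Over the 13 group means the genes differed in how far they ranged. Plk2 and Cdkn1a ranged over 3.81 and 3.76, Mdm2 over 2.12, Trp53inp1 over 2.04, Ephx1 over 1.99 and Perp over 1.91, and the other 4 over less, down to 0.81 for Ccng1. The lowest mean of Cdkn1a, Plk2, Mdm2, Trp53inp1, Eda2r, Ccng1 and Ephx1 was that of scramble at 8 h. Of the 45 pairs of genes, 41 had a positive Pearson r over these means, which share arrays and scaling, from -0.48 (Aen and Ephx1) to 0.91 (Plk2 and Trp53inp1), with a median of 0.53. Pairs of other genes were not counted in this way, so these values do not set the list apart. Outside the list, the genes most like Cdkn1a over the 13 means were Klf6 (r = 0.985), Susd6 (0.979) and Rgmb (0.978). Those most like Plk2 were Diaph2 (0.961), Nt5dc3 (0.957) and Polk (0.947). For Eda2r they were Cd80 (0.922), Ano3 (0.921) and Csnk1g1 (0.917), and for Ephx1 A2m (0.902), Kdm4b (0.891) and Zfp2 (0.887).

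Other known p53 targets rose more often than they fell at 0 h of the time course. Of 30 listed, 24 were measured and 23 tested. With Mettl14 knockdown 13 rose and 2 fell, with a median of 0.36, beside 19.4% of all genes higher and 20.1% lower. With Mettl3 knockdown 10 rose and 1 fell, with a median of 0.07, beside 19.3% and 18.6%. This balance depended on the scaling: with the long-lived transcripts set equal, 8 rose and 7 fell (Mettl14) and 6 rose and 4 fell (Mettl3). Phlda3, which restrains the kinase Akt, rose by 0.91 ± 0.07 and 0.74 ± 0.07. Tnfrsf10b, a death receptor, rose by 0.79 ± 0.07 and 0.77 ± 0.07, and Apaf1, the core of the apoptosome, by 0.70 ± 0.07 and 0.50 ± 0.07. Pmaip1, which encodes the death protein Noxa, rose by 0.96 ± 0.11 and 0.53 ± 0.11, and Ddit4, an inhibitor of mTOR signalling, by 0.83 ± 0.11 and 0.75 ± 0.11. Tigar, a phosphatase of sugar metabolism, fell by 0.51 ± 0.08 in each, and Sesn1, a stress protein of the sestrin family, by 0.39 ± 0.15 with Mettl14 knockdown (adjusted p = 0.04998), with -0.34 ± 0.15 for Mettl3 (adjusted p = 0.0906).

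In the repeat set 4 of these targets rose and 5 fell with Mettl14 knockdown, beside 19.4% of all genes higher and 16.9% lower. With Mettl3 knockdown 3 rose and 9 fell, beside 17.9% and 17.4%. The balance turned once the long-lived transcripts were set equal, to 8 higher and 1 lower (Mettl14) and 4 higher and 3 lower (Mettl3). Tnfrsf10b again rose, by 0.29 ± 0.04 and 0.25 ± 0.04, as did Sfn, the 14-3-3 protein sigma, by 0.22 ± 0.06 and 0.30 ± 0.06. Sesn1 (0.42 ± 0.09) and Rprm (0.22 ± 0.06) rose with Mettl14 knockdown and changed by -0.12 ± 0.09 and 0.10 ± 0.06 with Mettl3 knockdown, which did not pass. Ddit4 rose with Mettl3 knockdown (0.26 ± 0.05) and changed by -0.09 ± 0.05 with Mettl14 knockdown, which did not pass. Ei24 fell by 0.24 ± 0.05 and 0.40 ± 0.05, Gtse1 by 0.18 ± 0.04 and 0.34 ± 0.04, and Tigar by 0.19 ± 0.04 and 0.31 ± 0.04. Sesn2 fell by 0.37 ± 0.06 and 0.27 ± 0.06. Polk fell by 0.24 ± 0.04 with Mettl3 knockdown and changed by 0.11 ± 0.04 with Mettl14 knockdown (adjusted p = 0.0735). Between the sets, 12 effects were higher and 2 lower in the time course for Mettl14, beside 7.86% and 8.64% of all genes, and 11 higher and none lower for Mettl3, beside 6.15% and 3.66%. Setting the long-lived transcripts equal made these 6 higher and 6 lower (Mettl14) and 3 and 3 (Mettl3). The counts for Mettl14 in the repeat set ranged from 1 to 4 higher and 2 to 5 lower without single arrays, and those for Mettl3 from 2 to 3 higher and 5 to 9 lower.

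Genes that act on p53 fell more often than they rose at 0 h, the time of the values here unless another is named. Of 10 listed regulators 9 were tested. With Mettl14 knockdown 1 rose and 5 fell in the time course, beside 19.4% of all genes higher and 20.1% lower. In the repeat set 1 rose and 6 fell, beside 19.4% and 16.9%, and the rise (Ppm1d) was lost without any 1 of the 8 arrays. With Mettl3 knockdown none rose and 5 fell in the time course, beside 19.3% of all genes higher and 18.6% lower. In the repeat set 1 rose and 4 fell, beside 17.9% and 17.4%. Mdm4, the partner of Mdm2 that holds p53 inactive, fell in all 4 comparisons: by 0.52 ± 0.08 and 0.55 ± 0.08 in the time course, and by 0.74 ± 0.06 and 0.94 ± 0.06 in the repeat set. Atr, a kinase that senses stalled replication, fell by 0.52 ± 0.08, 0.62 ± 0.08, 0.40 ± 0.07 and 0.49 ± 0.07 in the same order. Usp7, a deubiquitinase of Mdm2 and p53, fell by 0.32 ± 0.05, 0.38 ± 0.05, 0.27 ± 0.04 and 0.29 ± 0.04. Chek2, a checkpoint kinase, fell by 0.57 ± 0.08, 0.37 ± 0.08, 0.35 ± 0.04 and 0.32 ± 0.04. Atm, a kinase that senses broken DNA, fell by 0.39 ± 0.07 with Mettl3 knockdown in the time course and by 0.24 ± 0.05 with Mettl14 knockdown in the repeat set. It did not pass in the other comparisons at 0 h (-0.19 ± 0.07 and -0.14 ± 0.05). With Mettl3 knockdown Atm was also lower at 4 h and 8 h, by 0.27 ± 0.07 and 0.23 ± 0.07. With Mettl14 knockdown it did not pass at those times. Ppm1d, a phosphatase that switches p53 off and is itself a target, rose at 0 h by 0.26 ± 0.06 and 0.13 ± 0.04 with Mettl14 knockdown. With Mettl3 knockdown it did not pass at 0 h (0.16 ± 0.06 and -0.07 ± 0.04). At 4 h and 8 h Ppm1d was higher with Mettl14 knockdown, by 0.48 ± 0.06 and 0.82 ± 0.06. With Mettl3 knockdown it was then higher by 0.43 ± 0.06 and 0.85 ± 0.06. Hipk2, a kinase of p53, rose by 0.33 ± 0.05 with Mettl3 knockdown in the repeat set and fell by 0.19 ± 0.05 with Mettl14 knockdown there. In that set its control for Mettl3 lay above its control for Mettl14 by 0.34 ± 0.05 (adjusted p = 0.0569 in limma). At 4 h and 8 h Hipk2 was higher with Mettl14 knockdown, by 0.18 ± 0.05 and 0.22 ± 0.05, and did not pass with Mettl3 knockdown. Between the sets, none of the 9 differed for Mettl14 in limma's test (3 at an unadjusted p under 0.05), and 1 was higher (Mdm4, 0.39, adjusted p = 0.0357) and 1 lower (Hipk2, -0.34, adjusted p = 0.00449) for Mettl3. Across all genes 7.86% were higher and 8.64% lower between the sets for Mettl14, and 6.15% and 3.66% for Mettl3. Once the long-lived transcripts were set equal, none was higher and 6 were lower between the sets for each knockdown. Of all genes, 2.61% were then higher and 51.6% lower for Mettl14, and 1.95% and 32.2% for Mettl3. That scaling gave none higher and 7 lower for each knockdown in the time course. The shares of all genes there were 8.47% higher and 43.8% lower (Mettl14), and 9.52% and 35.1% (Mettl3). In the repeat set it gave 2 higher and 4 lower (Mettl14) and 1 higher and 4 lower (Mettl3). Beside these, 31.2% of all genes were higher and 8.04% lower (Mettl14), and 26.6% and 9.93% (Mettl3).

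**Figure D5:**
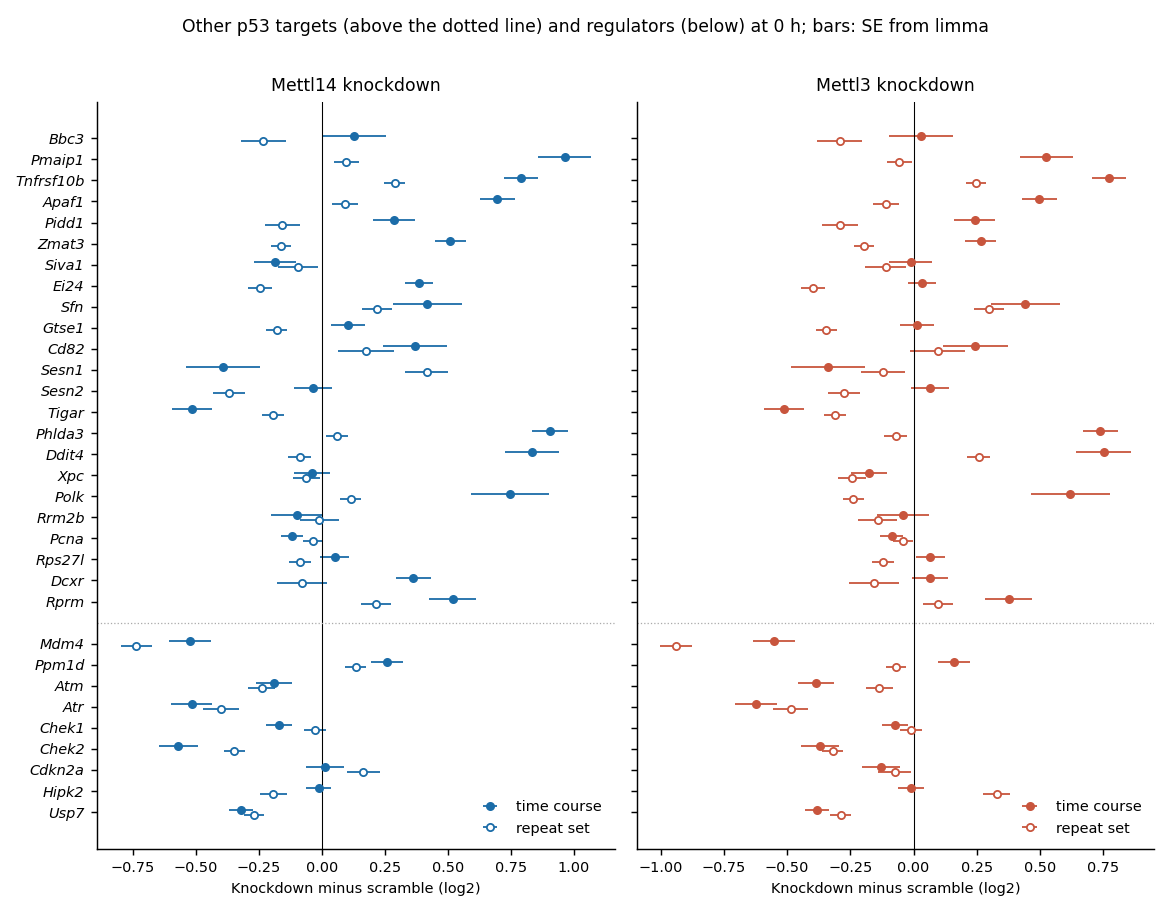
Knockdown minus scramble at 0 h on the log2 scale (x axis) for 23 other p53 targets and, below the dotted line, 9 regulators, in the time course (filled) and the repeat set (open), with standard errors from limma. Phlda3, Tnfrsf10b, Apaf1 and Pmaip1 lie right of their repeat set values, whereas Mdm4, Atr and Usp7 lie left of 0 in both sets.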

How the data were processed

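Affymetrix Mouse Gene 2.0 ST arrays of poly(A) RNA labelled with biotin gave 26 arrays in 13 groups of 2. The deposited values are log2 signals from RMA; per the submitters' processing notes the authors ran it with oligo. RMA corrects background, equalises the probe distributions and summarises each probe set. Joint processing of the 26 arrays is not given in the sources used here. Of 41345 probe sets, 23521 had 1 gene symbol, 1814 had several and 16010 were not listed. The 7393 dimmest of 22180 genes were left out and 14787 tested.

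Groups were compared with limma 3.58.1 (R 4.3.3; lmFit and eBayes, two-sided) with Benjamini-Hochberg adjustment over all genes tested and a threshold of 0.05. The 18 time course arrays shared one fit (9 residual degrees of freedom), the 8 repeat arrays another (4), and differences between sets came from all 26 (13). Tables and figures were made with pandas 2.3.3 and matplotlib 3.10.9. The script was tested on simulated data. Replicate numbers did not pair the arrays. Named in every comparison were the 10 genes; from the other p53 lists, up to 4 genes with the smallest adjusted p in each direction of each 0 h knockdown comparison; and, for Cdkn1a, Plk2, Ephx1 and Eda2r, the 3 most correlated genes. The members and lists were chosen with earlier results of these data known. Alternatives covered the dim filter, averaging the probe sets of each gene, limma's trend and robust options, a replicate block, quantile normalization within a set, 25 long-lived transcripts set equal, a fit over 26 arrays, a fit on just the 6 time course arrays of 0 h, and each array left out in turn.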

Additional observations from a re-analysis of the deposited data

Results flagged for a closer look

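The knockdown effect at 0 h differed between the time course and the repeat set for each of the 10 genes, by limma's test of the difference itself. For Mettl14 the time course effect was larger by 0.99 ± 0.14 for Cdkn1a, 1.00 ± 0.11 for Btg2, 0.64 ± 0.06 for Ccng1 and 1.57 ± 0.13 for Plk2. It was larger by 1.05 ± 0.10 for Perp, 1.02 ± 0.06 for Trp53inp1, 0.47 ± 0.08 for Aen and 1.16 ± 0.11 for Eda2r. Mdm2 differed by 0.57 ± 0.10 and Ephx1 by 1.15 ± 0.18. For Mettl3 the differences were 1.39 ± 0.14 for Cdkn1a, 0.88 ± 0.11 for Btg2, 0.48 ± 0.06 for Ccng1 and 1.41 ± 0.13 for Plk2. They were 0.60 ± 0.10 for Perp, 1.24 ± 0.06 for Trp53inp1, 0.33 ± 0.08 for Aen, 1.15 ± 0.11 for Eda2r, 0.59 ± 0.10 for Mdm2 and 1.24 ± 0.18 for Ephx1.

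The change by 8 h differed between knockdown and scramble for 4 genes, in calls that depended on single arrays and on the scaling. Without the dim filter the calls went from 2 to 1 for Mettl14 and from 4 to 1 for Mettl3. Trp53inp1 fell less, by 0.30 ± 0.07 with Mettl14 knockdown and 0.36 ± 0.07 with Mettl3 knockdown. Mdm2 (0.61 ± 0.11) and Aen (0.40 ± 0.09) differed upward with Mettl3 knockdown. Btg2 differed downward, by -0.77 ± 0.12 and -0.51 ± 0.12.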

How the results depend on the processing

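Over 34 alternatives (26 left out an array), 5079 of 5360 values of single genes kept their direction and their side of the threshold, 145 lost it, 79 gained it, 54 moved without a call and 3 reversed. The reversals came with the long-lived transcripts set equal: at 8 h in scramble Perp went to -0.28 and Btg2 to -0.32, and Aen at 8 h in Mettl3 knockdown to -0.0727. That scaling's own shift of all genes is given with the results.

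Counts of called genes that moved by over 1.5 times were the following. With Mettl3 knockdown in the repeat set 6 became 3 in the fit over 26 arrays and 3 to 6 with an array left out. For the Mettl14 difference in 8 h change, 2 became 1 without the dim filter, 7 with the long-lived transcripts set equal and 1 to 2 with an array left out. For the Mettl3 difference, 4 became 1 without the filter, 2 with quantile normalization, 7 in the fit over 26 arrays and 0 to 4 with an array left out. The repeat controls against each other went from 0 to 6 with trend and robust. From 4 h to 8 h, 3 genes became 5 with Mettl14 knockdown (trend and robust, and the fit over 26 arrays), and 2 became 1 with Mettl3 knockdown without the filter. With an array left out these counts were 3 to 7 in scramble, 1 to 4 with Mettl14 knockdown and 1 to 3 with Mettl3 knockdown.

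A fit with the replicate block gave 8 genes in place of 7 for 8 h in scramble and 3 in place of 4 for the Mettl3 difference in 8 h change, and the same count in the other 20 comparisons. Differences of replicates correlated between groups at -0.436 to 0.335 in the time course, so the numbers were not taken as pairs. Over all genes, the calls between the repeat controls went from 99 to 36 with that block, 1 without the filter, 777 with trend and robust, 155 in the fit over 26 arrays and 0 to 26 without single arrays. With the long-lived transcripts set equal the calls over all genes went from 2439 to 8018 (Mettl14) and 1450 to 5048 (Mettl3) between the sets, from 738 to 3492 and 513 to 1440 for the differences in 8 h change, from 6839 to 4070, 6826 to 4140 and 6592 to 4282 for 4 h in scramble, Mettl14 and Mettl3 knockdown, and from 2201 to 4759 from 4 h to 8 h in scramble. The differences in 8 h change numbered 345 and 251 without the filter and 1168 and 972 in the fit over 26 arrays, and 789 for Mettl3 with trend and robust; the arrays that moved them by over 1.5 times gave 327 to 469 and 222 to 282 when left out. From 4 h to 8 h, 1181 and 1159 in the knockdowns became 759 and 719 without the filter and 1820 and 1808 in the fit over 26 arrays; such arrays gave 1157 to 1359 in scramble, 418 to 545 with Mettl14 knockdown and 508 to 716 with Mettl3 knockdown. Between the sets, Mettl3 calls numbered 951 and 940 without replicate 1 and 2 of its repeat control. The cause of these changes was not tested. Signal near background limits the dim genes, and none of the 10 is among them.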
